A study of Bos taurus with 8 samples.

Results

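Mesenchymal and extracellular matrix transcripts were followed in cattle embryos through 10 genes, LUM, DCN, COL1A1, COL1A2, COL3A1, SPARC, THBS1, FN1, VIM and TAGLN. All 10 were found by symbol among the 16606 genes of the deposited expression table. The members were chosen from measured values in these same libraries, so their levels, their differences between groups and the numbers of them called are given as a description, and no p-value of a member is given. The samples were pools of 5 Bos taurus embryos produced by in vitro fertilization, in 4 groups of 2 libraries: control and edited embryos at the 4-cell stage and control and edited embryos at the 8-cell stage. The edited embryos had received PEmax, a prime editor that writes a short change into DNA without a double-strand cut, with a guide RNA by injection into the zygote cytoplasm, and the design names the edit RPL12 A148G. The prime editor is named in the treatment protocol, whereas the titles of these samples call them base edited. RPL12 encodes a protein of the large ribosomal subunit. Whether the control zygotes were injected, and with what, is not given in the labels. Embryos of all 4 groups came from cumulus-oocyte complexes of abattoir ovaries, matured and fertilized in the dish with Holstein semen. The sample labels give the cell type as oocytes, whereas the titles give embryos of the stages named here.

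The extracellular matrix is the protein and sugar meshwork that cells secrete around themselves. Fibrillar collagens form its cables, small leucine-rich proteoglycans such as lumican and decorin bind the cables and set their spacing, and matricellular proteins such as SPARC and thrombospondin 1 modulate how cells hold on to it. Vimentin and transgelin lie inside the cell and are widely used as mesenchymal and smooth muscle markers. In the ovary, theca, stroma and granulosa cells make much of this matrix, and oocytes grow and mature in close contact with the cumulus cells derived from the granulosa. A bulk library of pooled embryos cannot tell fewer cells of a type from less RNA per cell.

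Levels are in CPM, the reads of a gene per 1000000 reads of its library. The libraries held between 33527531 and 35122409 reads assigned to genes, so 3 reads corresponded to between 0.0858 and 0.0899 CPM. Between 14763 and 15438 genes had a read in each library. Replicates of a group correlated across genes with Pearson r between 0.971 and 0.978, and differed by more than the sampling noise of their reads in each of the 4 groups. The labels number the libraries of a group 1 and 2 without saying that they came from separate fertilizations, so the p-values below measure only the spread between these pools. Levels of different genes were not ranked against each other, since CPM is not corrected for transcript length.

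The members were at their highest in 4-cell control embryos and at their lowest in 8-cell edited embryos. Their summed level took 0.573% and 0.879% of all reads in the 4-cell control libraries and 0.170% and 0.243% in the 4-cell edited libraries. It took 0.408% and 0.383% in the 8-cell control libraries and 0.0328% and 0.0958% in the 8-cell edited libraries. No library of an edited group reached the level of a control library of the same stage. LUM alone made up between 36.6% and 78.6% of the sum in the 8 libraries. Without LUM the sum was 2896 and 2818 CPM in 4-cell controls, 403 and 517 CPM in 4-cell edited embryos, 1050.1 and 1382 CPM in 8-cell controls, and 208 and 215 CPM in 8-cell edited embryos.

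**Figure D1:**
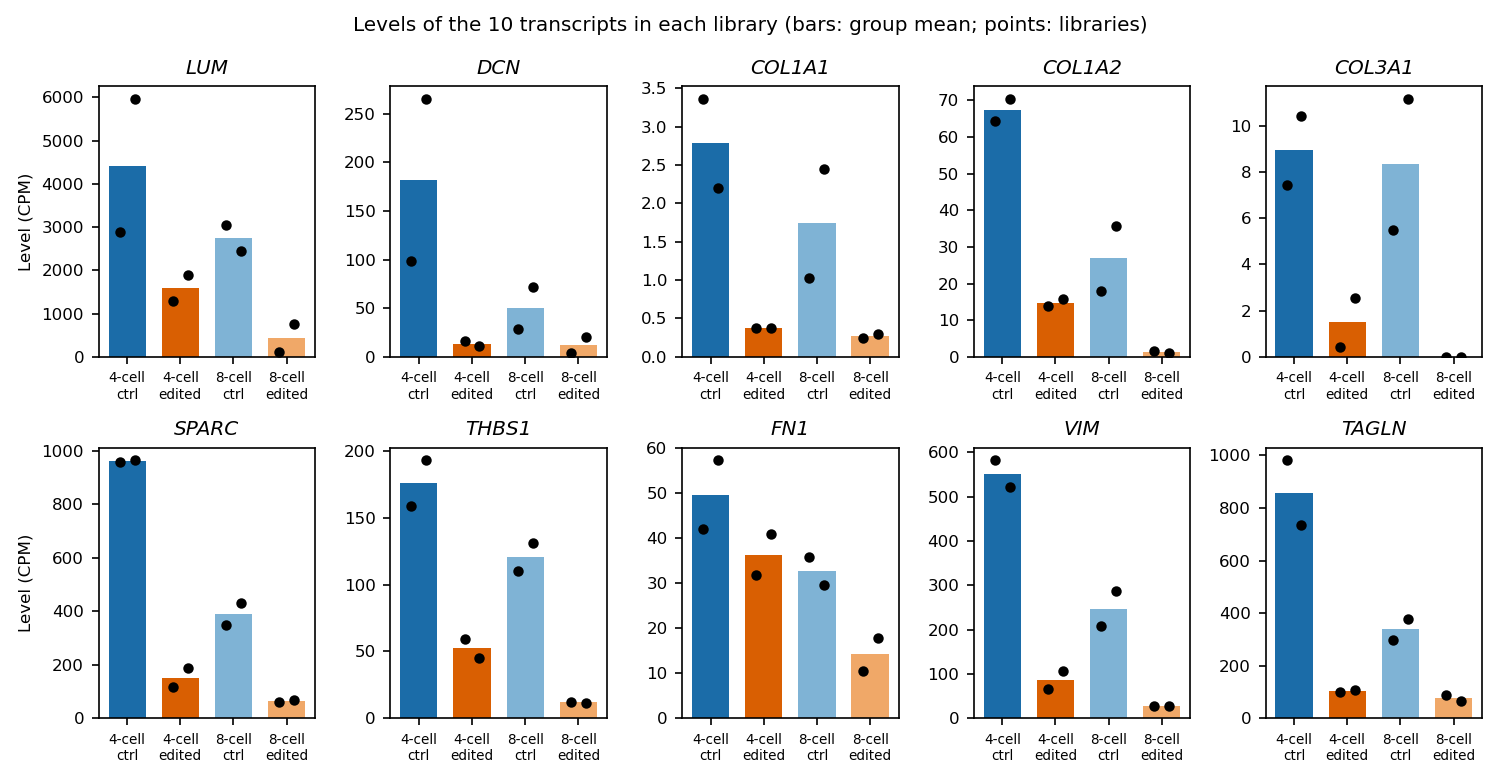
Level of each of the 10 members (vertical axis, CPM on a linear scale from 0, different in each panel) by stage and by control or edited embryos, with bars for the group mean and 1 point per library. Both edited points lie under both control points of the same stage in each of the 10 panels, and COL3A1 has no read in either 8-cell edited library.

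Lumican (LUM), a keratan sulfate proteoglycan that binds collagen fibrils, stood at 2878 and 5965 CPM in the 4-cell control libraries and at 1282 and 1897 CPM in the 4-cell edited libraries. Among 8-cell embryos it stood at 3052 and 2449 CPM in the controls and at 120 and 749 CPM in the edited embryos. The groups did not overlap at either stage, but the replicates were far apart. The higher library was 2.07 times the lower in 4-cell controls and 6.23 times the lower in 8-cell edited embryos. The control mean was 2.78 times the edited mean at the 4-cell stage (4421 ± 2183 against 1589 ± 434 CPM, SD, n = 2) and 6.33 times at the 8-cell stage (2750 ± 427 against 435 ± 444 CPM, SD, n = 2).

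Decorin (DCN), the proteoglycan that coats collagen fibrils and binds growth factors of the TGF-beta family, was measured at 98.6 and 265 CPM in 4-cell controls and at 16.0 and 11.1 CPM in 4-cell edited embryos. In 8-cell embryos it was at 28.9 and 72.0 CPM in controls and at 4.15 and 20.5 CPM in edited embryos. Both edited libraries lay below both controls at each stage, and the 4-cell and 8-cell edited libraries overlapped. The control mean was 13.4 times the edited mean at the 4-cell stage and 4.09 times at the 8-cell stage. In 8-cell controls the higher library was 2.49 times the lower.

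LUM and DCN lie next to each other on cattle chromosome 5 in the RefSeq annotation of ARS-UCD2.0, with KERA, the keratocan gene, on the other side of LUM and BTG1 beyond DCN. The neighbours did not move as a unit across libraries. The ratio of the LUM to the DCN level was 29.2 and 22.5 in 4-cell controls, 80.0 and 171 in 4-cell edited embryos, 106 and 34.0 in 8-cell controls, and 29.0 and 36.5 in 8-cell edited embryos. In 8-cell controls and in 4-cell edited embryos the library with more LUM had less DCN. KERA, which is in the same family, had a mean of 0.673 CPM over the 8 libraries and did not reach the level required for testing. It stood at 0.145 and 0.0586 CPM in 4-cell controls, from 5 and 2 reads, and at 1.10 and 0.877 CPM in 4-cell edited embryos, the opposite order to that of its neighbours. In 8-cell embryos its groups overlapped, at 0.143 and 1.51 CPM in controls and 1.08 and 0.479 CPM in edited embryos.

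The fibrillar collagen chains were measured at different depths. COL1A2, the alpha 2 chain of type I collagen, was at 64.2 and 70.4 CPM in 4-cell controls and at 13.8 and 15.7 CPM in 4-cell edited embryos. In 8-cell embryos it was at 18.0 and 35.8 CPM in controls and at 1.58 and 1.05 CPM in edited embryos. The control mean was thus 4.55 times the edited mean in 4-cell and 20.5 times in 8-cell embryos, with no overlap at either stage. The replicates of COL1A2 were within 1.14-fold of each other in both 4-cell groups and 1.99-fold apart in 8-cell controls.

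COL1A1, the alpha 1 chain that pairs with COL1A2 in the type I collagen triple helix, rested on few reads. It had 116 and 75 reads in 4-cell controls, 13 and 13 in 4-cell edited embryos, 36 and 83 in 8-cell controls, and 8 and 10 in 8-cell edited embryos. These correspond to 3.36 and 2.199, 0.376 and 0.380, 1.03 and 2.45, and 0.239 and 0.300 CPM. The 95% exact Poisson interval, which covers counting error only, reached up to 0.650 CPM in the 4-cell edited libraries and began at 1.73 CPM or more in the 4-cell controls. In 8-cell embryos the edited intervals ended at 0.551 CPM and the lower control interval began at 0.721 CPM. The ratio of the COL1A2 to the COL1A1 level was 19.1 and 32.0 in 4-cell controls and 36.8 and 41.4 in 4-cell edited embryos, where the 95% exact binomial intervals of the edited values began at 21.3 and 24.0 and so included the higher control value. It was 17.5 and 14.6 in 8-cell controls and 6.62 and 3.50 in 8-cell edited embryos. There the interval of the first edited library reached 16.1 and overlapped those of both controls, and that of the second ended at 7.92, under the lower control bound of 11.7.

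COL3A1, the single chain of type III collagen, was absent from the reads of both 8-cell edited libraries. It had 257 and 356 reads in 4-cell controls, 15 and 87 in 4-cell edited embryos, 192 and 378 in 8-cell controls, and 0 and 0 in 8-cell edited embryos. The levels were 7.45 and 10.4, 0.434 and 2.54, and 5.49 and 11.2 CPM in the first 3 of these groups. A count of 0 allows up to 0.110 CPM in either 8-cell edited library at the upper end of the 95% exact Poisson interval. The mean of the 8-cell controls was 92.8 times a floor of 3 reads in each edited library. That floor lies below the upper interval end, so the ratio is not a lower bound. The 4-cell edited libraries differed 5.87-fold from each other, and the control mean was 6.01 times their mean. In RefSeq, COL3A1 adjoins COL5A2, a minor fibrillar collagen chain described with the wider lists.

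SPARC, the secreted calcium- and collagen-binding glycoprotein also called osteonectin, was nearly equal in the 4-cell control libraries. It stood at 959 and 963 CPM in 4-cell controls, 116 and 187 CPM in 4-cell edited embryos, 347 and 432 CPM in 8-cell controls, and 60.5 and 69.8 CPM in 8-cell edited embryos. The 4 groups were separated from each other in every pairing. The control mean was 6.34 times the edited mean at the 4-cell stage and 5.98 times at the 8-cell stage.

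Thrombospondin 1 (THBS1), a matricellular trimer that activates latent TGF-beta and restrains angiogenesis, was at 158 and 193 CPM in 4-cell controls and at 59.6 and 45.4 CPM in 4-cell edited embryos. In 8-cell embryos it was at 110.1 and 131 CPM in controls and at 12.4 and 11.5 CPM in edited embryos. The control mean was 3.35 times the edited mean at the 4-cell stage and 10.1 times at the 8-cell stage. All 4 groups were again apart from each other, with replicates no more than 1.31-fold apart.

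Fibronectin (FN1), the adhesive glycoprotein that integrins assemble into fibrils, differed least. Its levels were 42.1 and 57.3 CPM in 4-cell controls, 31.8 and 40.9 CPM in 4-cell edited embryos, 35.8 and 29.7 CPM in 8-cell controls, and 10.6 and 17.9 CPM in 8-cell edited embryos. The control mean was 1.37 times the edited mean at the 4-cell stage, where the replicates of a group were themselves up to 1.36-fold apart. It was 2.30 times the edited mean in 8-cell embryos. FN1 was also the 1 member whose 4-cell edited and 8-cell control libraries overlapped.

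The intracellular members followed SPARC in their order of groups. Vimentin (VIM), the intermediate filament protein of mesenchymal cells, was at 582 and 523 CPM in 4-cell controls, 65.3 and 107 CPM in 4-cell edited embryos, 207 and 288 CPM in 8-cell controls, and 28.2 and 28.2 CPM in 8-cell edited embryos. Transgelin (TAGLN), an actin-binding protein of smooth muscle and myofibroblasts, was at 981 and 734 CPM in 4-cell controls, 99.8 and 108 CPM in 4-cell edited embryos, 296 and 379 CPM in 8-cell controls, and 90.4 and 65.6 CPM in 8-cell edited embryos. The control mean of VIM was 6.43 times the edited mean in 4-cell embryos and 8.78 times in 8-cell embryos. For TAGLN the corresponding ratios were 8.26 and 4.33.

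Over the 10 members the control mean was between 1.37 and 13.4 times the edited mean at the 4-cell stage, with a median of 6.17. Among 8-cell groups the lowest ratio was 2.30 and the median 6.40, with COL3A1 entered at its ratio to the floor of 3 reads. Both edited libraries lay below both controls for 10 of 10 members at the 4-cell stage and for 10 of 10 at the 8-cell stage, where the same held for 37.5% and 32.7% of the 12129 genes tested. Since the members were chosen from these libraries, nothing is read from these counts.

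Differences between groups were fitted with limma on log2(CPM + 1) over all genes averaging 1 CPM or more across the libraries, and a gene was called at an adjusted p under 0.05. On this scale the log2 fold change understates that of genes near 1 CPM, COL1A1 and COL3A1 among the members. The same holds for COL1A2 in comparisons with 8-cell edited embryos, where it was at 1.58 and 1.05 CPM. All 10 members passed the minimum level, COL1A1 with an edited mean under 1 CPM at both stages and COL3A1 at the 8-cell stage. The minimum was set on the mean of all 8 libraries, and these 2 genes passed it through the control levels of both stages. Their lower edited levels are therefore not independent of the filter. At the 4-cell stage 9 of 10 members were called lower in edited embryos, against 25.8% of all genes tested, and none was called higher, against 18.9%. The uncalled member was FN1, with a log2 fold change of -0.44 (SE 0.308). At the 8-cell stage 9 of 10 were called lower, against 14.5% of all genes, and none higher, against 1.08%. The uncalled member there was COL1A1, with a log2 fold change of -1.06. The members were chosen from these same contrasts, so nothing is read from these counts.

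**Figure D2:**
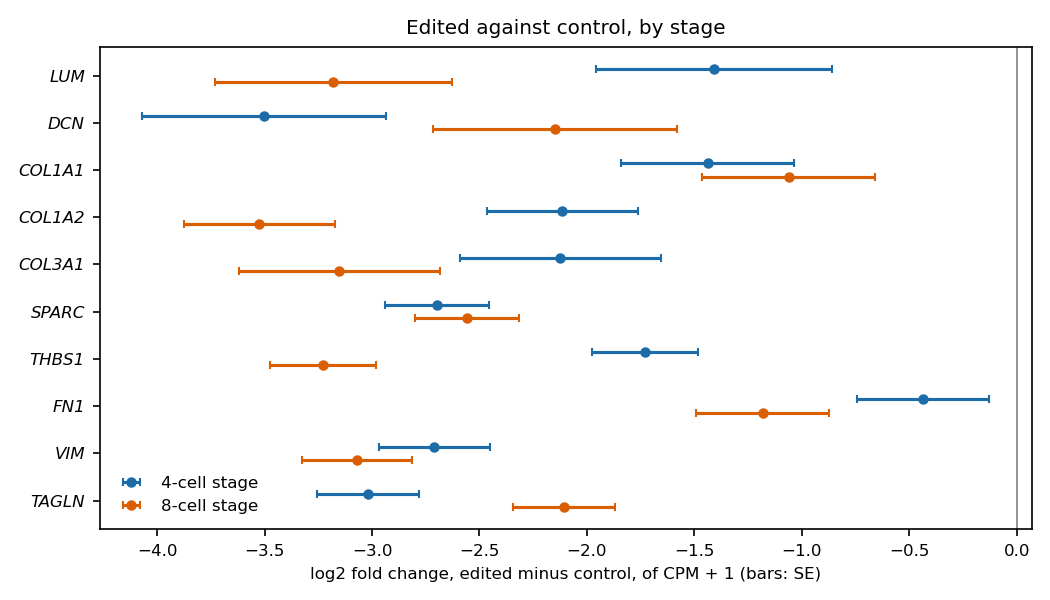
Log2 fold change of CPM + 1, edited minus control, for each of the 10 members in 4-cell and 8-cell embryos (points, with bars of 1 SE from limma). All 20 points lie below 0, between -3.52 and -0.44.

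The members had a median log2 change of -2.12 in 4-cell embryos and -2.81 in 8-cell embryos, where the median of all genes tested was -0.02 and 0.00. At the 4-cell stage the values ran from -3.50 (SE 0.568) for DCN and -3.02 (SE 0.237) for TAGLN to -1.41 (SE 0.551) for LUM and -0.44 for FN1. The 8-cell values ran from -3.52 for COL1A2, -3.23 for THBS1 and -3.18 for LUM to -1.18 for FN1 and -1.06 for COL1A1. On this scale the order of the members thus differed between the stages, with DCN first at 4 cells and LUM, COL1A2 and THBS1 among the largest at 8 cells. COL3A1, without a read in the 8-cell edited libraries, had -3.15 there. By the ratio of means LUM, at 6.33, lay under the 8-cell member median of 6.40. Its 8-cell edited libraries were far apart, at 120 and 749 CPM. The LUM call at the 4-cell stage was lost with TMM scaling, edgeR, DESeq2, a pseudocount of 0.5 CPM and no minimum level, and without 4-cell control replicate 2, 4-cell edited replicate 1 or 4-cell edited replicate 2, and that of COL1A1 without 4-cell control replicate 1. At 8 cells the DCN call was lost with edgeR, DESeq2 and no minimum level, and without 8-cell control replicate 2 or 8-cell edited replicate 1, the FN1 call without 8-cell control replicate 1 or 8-cell edited replicate 1, and COL1A1 was called with DESeq2 and without 8-cell control replicate 1.

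The 2 remaining comparisons ask how far the members changed from 4 to 8 cells within control and within edited embryos. Each shares its libraries with the comparisons above, so these values are not independent of them. The members were chosen from values in these libraries, so nothing is read from the member counts of either comparison. In controls 4 of 10 members were called lower at the 8-cell stage (VIM, SPARC, COL1A2 and TAGLN), against 6.27% of all genes, and none higher, against 2.75%. The 4-cell mean was 2.23 times the 8-cell mean for VIM, 2.47 times for SPARC, 2.50 times for COL1A2 and 2.54 times for TAGLN. LUM, COL1A1 and COL3A1 overlapped between the 4-cell and 8-cell control libraries. COL3A1 differed least, with a 4-cell mean 1.07 times the 8-cell mean (8.94 ± 2.12 against 8.33 ± 4.02 CPM, SD, n = 2). The control count fell to 0 of 10 without 4-cell control replicate 1 or without 8-cell control replicate 1, where limma at an unadjusted p under 0.05 gave 7 and 4 members, and edgeR on all libraries called 1.

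In edited embryos 6 of 10 members were called lower at the 8-cell stage (LUM, VIM, SPARC, COL1A2, FN1 and THBS1), against 3.73% of all genes, and none higher, against 1.45%. As in controls, nothing is read from this count. The 4-cell mean was 11.2 times the 8-cell mean for COL1A2, 4.39 times for THBS1, 3.66 times for LUM and 3.04 times for VIM. The COL3A1 mean in 4-cell edited embryos was 16.6 times the floor of 3 reads per library at the 8-cell stage. DCN was the 1 member whose edited libraries overlapped between the stages, with a 4-cell mean 1.10 times the 8-cell mean. TAGLN had a ratio of 1.33. The count was 1 of 10 without 4-cell edited replicate 2 and 3 of 10 without 8-cell edited replicate 1.

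Group means fell in the order 4-cell control, 8-cell control, 4-cell edited, 8-cell edited for 9 of 10 members, as they did for 19.1% of all genes tested. Nothing is read from this count either, as the members were chosen from these libraries. FN1 was the exception, with a mean of 36.3 CPM in 4-cell edited embryos and 32.7 CPM in 8-cell controls. Neighbouring groups in that order overlapped for LUM, COL1A1 and COL3A1 (the control groups), FN1 (8-cell control and 4-cell edited) and DCN (the edited groups).

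Whether the difference between edited and control embryos changed with stage was fitted as an interaction, the 8-cell minus the 4-cell log2 fold change. It was called for 1 of 10 members, THBS1, against 3.96% of all genes, and as THBS1 was chosen from these libraries nothing is read from this. The THBS1 value was -1.50 (SE 0.352), from -1.73 at the 4-cell stage to -3.23 at the 8-cell stage. LUM had -1.77 (SE 0.779), COL1A2 -1.41 (SE 0.498) and COL3A1 -1.03 (SE 0.661), and DCN had 1.35 (SE 0.803) and TAGLN 0.91 (SE 0.336). SPARC had 0.14 (SE 0.342) and VIM -0.36 (SE 0.364), the values nearest to 0. The THBS1 call was lost with edgeR, with no minimum level and without any 1 of 7 libraries, all but 4-cell control replicate 2. Over all genes limma called 243 lower and 237 higher in the interaction, and edgeR 12 and 6.

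The other genes of the matrix and of mesenchymal cells were read from 8 lists holding 189 genes, none of them a member. The lists were chosen with earlier results of these data known, so their counts and p-values are not an independent check on the members. Of these, 185 were in the table and 138 passed the minimum level. At the 4-cell stage 73 of the 138 (52.9%) fell and 11 (7.97%) rose in edited embryos, and the median log2 change was -1.08. In 8-cell embryos 67 (48.6%) fell and 1 (0.725%) rose, with a median of -0.94. Over all genes tested the shares were 25.8% and 18.9% at the 4-cell stage and 14.5% and 1.08% at the 8-cell stage. Of the 138 genes, 10 had a mean under 1 CPM in 4-cell edited embryos, 7 of them among those that fell there, and 25 had one in 8-cell edited embryos, 15 of them among those that fell there. Without 8-cell control replicate 2 the 8-cell count was 43 genes in place of 68.

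**Figure D3:**
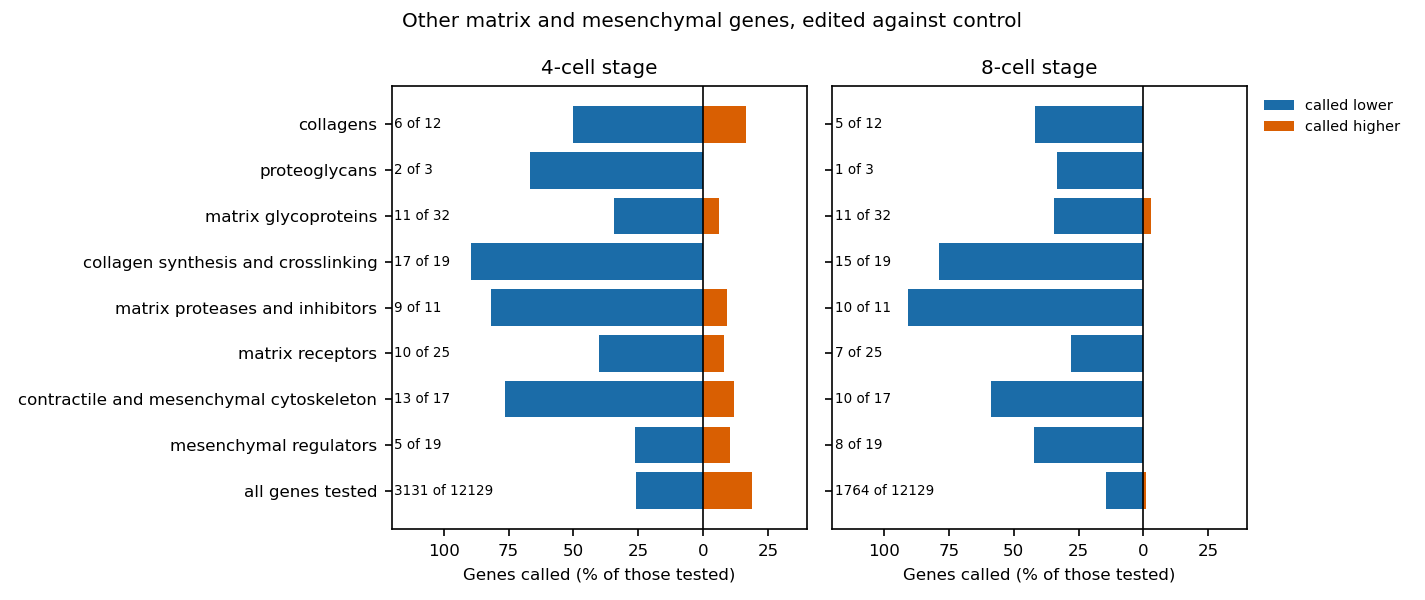
Share of tested genes called lower (bars to the left) and higher (bars to the right) in edited embryos by limma at an adjusted p under 0.05, for 8 lists of other matrix and mesenchymal genes and for all 12129 genes tested, at the 4-cell and 8-cell stages. The counts printed at the left of each panel are genes called lower of genes tested; collagen synthesis and crosslinking reached 17 of 19 at the 4-cell stage and matrix proteases and inhibitors 10 of 11 at the 8-cell stage.

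Enzymes and chaperones of collagen synthesis and crosslinking fell in 17 of 19 tested genes at the 4-cell stage and in 15 of 19 at the 8-cell stage. Cyclophilin B (PPIB), the endoplasmic reticulum proline isomerase that assists collagen folding, was at 746 and 639 CPM in 4-cell controls and at 52.3 and 83.2 CPM in 4-cell edited embryos. Its log2 change was -3.37 (SE 0.252, adjusted p = 6.14e-07 by limma). P3H1, a prolyl 3-hydroxylase, fell by 2.84 and PLOD1, a lysyl hydroxylase, by 2.75 on the log2 scale at the 4-cell stage. At the 8-cell stage LOXL4, a lysyl oxidase that crosslinks collagen and elastin, was at 46.3 and 21.8 CPM in controls and at 1.31 and 3.38 CPM in edited embryos. Its log2 change was -3.37 (SE 0.399, adjusted p = 2.58e-05 by limma), and PLOD2 and PLOD1 followed with -3.15 and -2.81.

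Matrix proteases and their inhibitors fell in 9 of 11 tested genes at the 4-cell stage and in 10 of 11 at the 8-cell stage. TIMP2, an inhibitor of matrix metalloproteinases, was at 510 and 335 CPM in 4-cell controls and 30.0 and 44.9 CPM in 4-cell edited embryos. Its log2 change was -3.46 (SE 0.273, adjusted p = 6.44e-07 by limma) at the 4-cell stage and -3.29 at the 8-cell stage. Its relative TIMP1 fell by 2.99 and 2.79. PLAT, the tissue plasminogen activator, fell by 2.72 at the 4-cell stage, and ADAMTS1, a protease that cleaves versican, by 2.69 at the 8-cell stage. ADAMTS4 was called higher at the 4-cell stage, with a log2 fold change of 1.20. Inhibitors and proteases therefore both stood among the genes that fell.

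Among the 12 collagens tested besides the members, 6 fell and 2 rose at the 4-cell stage, and 5 fell and none rose at the 8-cell stage. COL4A1, a basement membrane chain, was at 24.8 and 23.4 CPM in 4-cell controls and at 4.57 and 2.90 CPM in 4-cell edited embryos, with a log2 change of -2.43 (SE 0.437, adjusted p = 0.000352 by limma). COL18A1 had -2.02 and COL5A2, the neighbour of COL3A1, had -1.81, and the COL5A2 call was lost without 4-cell control replicate 2 or 4-cell edited replicate 1. COL8A1 and COL14A1 rose. At the 8-cell stage COL12A1 was at 33.4 and 17.4 CPM in controls and at 1.40 and 4.04 CPM in edited embryos, with a log2 change of -2.85 (SE 0.458, adjusted p = 0.000322 by limma). COL11A1 had -2.35 and COL4A1 -2.14, and both calls were lost without 8-cell control replicate 2.

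Proteoglycans other than LUM and DCN were few, with 3 of 11 listed genes tested. FMOD, fibromodulin, which like lumican binds collagen fibrils, was at 27.0 and 39.5 CPM in 4-cell controls and at 4.74 and 2.78 CPM in 4-cell edited embryos. It fell by 2.85 at the 4-cell stage (limma adjusted p = 3.34e-05) and by 1.88 at the 8-cell stage, the latter not called without 8-cell control replicate 2. VCAN, versican, fell by 1.43 at the 4-cell stage.

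Matrix glycoproteins were the list with the smallest share of falls after the regulators at the 4-cell stage, 11 of 32 genes with 2 higher, and had 11 of 32 lower and 1 higher at the 8-cell stage. MFAP2, a microfibril protein, was at 114 and 60.1 CPM in 4-cell controls and at 4.63 and 5.15 CPM in 4-cell edited embryos. Its log2 change was -3.83 (SE 0.393, adjusted p = 2.59e-06 by limma), followed by -3.39 for SMOC2 and -3.12 for THBS2. At the 8-cell stage POSTN, periostin, a ligand of integrins in remodelling tissue, was at 31.2 and 48.2 CPM in controls and at 0.0897 and 2.34 CPM in edited embryos. Its log2 change was -4.38 (SE 0.625, adjusted p = 0.000114 by limma), followed by -2.80 for THBS2, not called with DESeq2, and -2.62 for SPARCL1. The genes that rose were FBN1 and NID2 at the 4-cell stage and SMOC1 at the 8-cell stage.

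Receptors for the matrix fell in 10 of 25 tested genes at the 4-cell stage, with 2 higher, and in 7 of 25 at the 8-cell stage. SDC4, a syndecan, had a log2 change of -2.16, CD44, the hyaluronan receptor, of -2.04 and ITGAV, the integrin alpha V chain, of -1.87 at the 4-cell stage. The CD44 call was lost without 4-cell edited replicate 1. In 8-cell embryos ITGAV had -2.85, ITGA5, the fibronectin receptor chain, had -2.47, and SDC1 had -2.11. ITGA4 and ITGB6 rose at the 4-cell stage. ITGB1, the beta chain shared by many collagen and fibronectin receptors and named here after its values were seen, was at 194 and 217 CPM in 4-cell controls and at 205 and 182 CPM in 4-cell edited embryos, which overlapped.

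Contractile and mesenchymal cytoskeleton genes fell in 13 of 17 at the 4-cell stage, with 2 higher, and in 10 of 17 at the 8-cell stage. PDLIM7, an actin-associated adaptor, was at 209 and 123 CPM in 4-cell controls and at 13.7 and 10.1 CPM in 4-cell edited embryos. Its log2 change was -3.66 (SE 0.312, adjusted p = 9.77e-07 by limma), with TPM2 and TAGLN2, a paralog of TAGLN, at -3.19 and -3.07. Tropomyosin 1 (TPM1) was at 516 and 537 CPM in 8-cell controls and at 77.4 and 63.0 CPM in 8-cell edited embryos, a log2 change of -2.90 (SE 0.248, adjusted p = 2.53e-06 by limma). CALD1 and TPM4 followed with -2.73 and -2.60. MYH11, the smooth muscle myosin heavy chain, and FLNC rose at the 4-cell stage.

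Regulators of the mesenchymal state fell in 5 of 19 tested genes at the 4-cell stage, with 2 higher, and in 8 of 19 at the 8-cell stage. At the 4-cell stage this share, 26.3%, was near the 25.8% of all genes. SNAI2, a transcriptional repressor of epithelial genes, was at 142 and 102 CPM in 4-cell controls and at 11.7 and 24.0 CPM in 4-cell edited embryos. It fell by 2.77 at the 4-cell and by 3.04 at the 8-cell stage. NT5E, a surface nucleotidase, fell by 2.24 and 2.50 at the same stages, and ZEB2, another such repressor, by 2.19 at the 4-cell stage. CDH2, N-cadherin, was at 60.1 and 82.7 CPM in 8-cell controls and at 6.46 and 7.43 CPM in 8-cell edited embryos, with a log2 change of -3.17 (SE 0.310, adjusted p = 5.70e-06 by limma). TGFBR3 and YAP1 rose at the 4-cell stage.

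Between stages, 23 of the 138 list genes (16.7%) fell and none rose from 4-cell to 8-cell controls, where limma at an unadjusted p under 0.05 gave 56 genes in either direction. In edited embryos 17 (12.3%) fell and 1 rose. Without 4-cell control replicate 1 or 8-cell control replicate 1 the control count was 0, with 41 and 29 genes at an unadjusted p under 0.05, and edgeR called 3 genes. Without 4-cell edited replicate 2 the edited count was 0, with 29 genes at an unadjusted p under 0.05.

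Markers of cell types that surround the oocyte moved in the same direction as the members in part. The summed level of 24 cumulus and granulosa markers was 1017 and 993 CPM in 4-cell controls, 312 and 341 CPM in 4-cell edited embryos, 377 and 751 CPM in 8-cell controls, and 378 and 369 CPM in 8-cell edited embryos. Of the 19 tested, 13 (68.4%) fell and 2 (10.5%) rose at the 4-cell stage, and 7 (36.8%) fell and none rose at the 8-cell stage. Over all genes tested 25.8% fell and 18.9% rose at the 4-cell stage, and 14.5% fell and 1.08% rose at the 8-cell stage. The 2 that rose were HAS2 and GREM1, with log2 changes of 1.77 and 1.07. In the 8-cell edited libraries STAR, at 174 and 213 CPM, and HAS2, at 124 and 106 CPM, made up most of the sum. Both lay above their 8-cell controls, at 154 and 143 CPM for STAR and 74.9 and 88.8 CPM for HAS2. The 8-cell sum therefore masks the 7 markers that fell. STAR, HAS2 and GREM1 were named after their values were seen. AMHR2, FOXL2, HSD17B1, LHCGR and AREG had means under 1 CPM, and LHCGR had at most 3 reads in every library. The summed level of 11 theca and stroma markers was 530 and 800.5 CPM in 4-cell controls, 214 and 210 CPM in 4-cell edited embryos, 384 and 488 CPM in 8-cell controls, and 157 and 213 CPM in 8-cell edited embryos. Of the 8 tested, 3 (37.5%) fell and 1 (12.5%) rose at the 4-cell stage, and 3 (37.5%) fell and none rose at the 8-cell stage. At the 4-cell stage ACTG2, CNN1 and INSL3 fell and MYH11 rose. ACTG2 alone was at 354 and 594 CPM in 4-cell controls, most of the sum. It was at 77.1 and 67.5 CPM in 4-cell edited embryos. In 8-cell embryos it was at 247 and 331 CPM in controls and at 64.8 and 123 CPM in edited embryos. ACTG2, CNN1, MYH11, PDGFRA and OGN are also in the matrix lists above, so this list is not separate from them. These genes were named after their values were seen. CYP17A1, the defining theca enzyme of androgen synthesis, had at most 3 reads in every library, and DES and OGN had means under 1 CPM. The part of these cells in the levels of the 10 members was not tested.

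**Figure D4:**
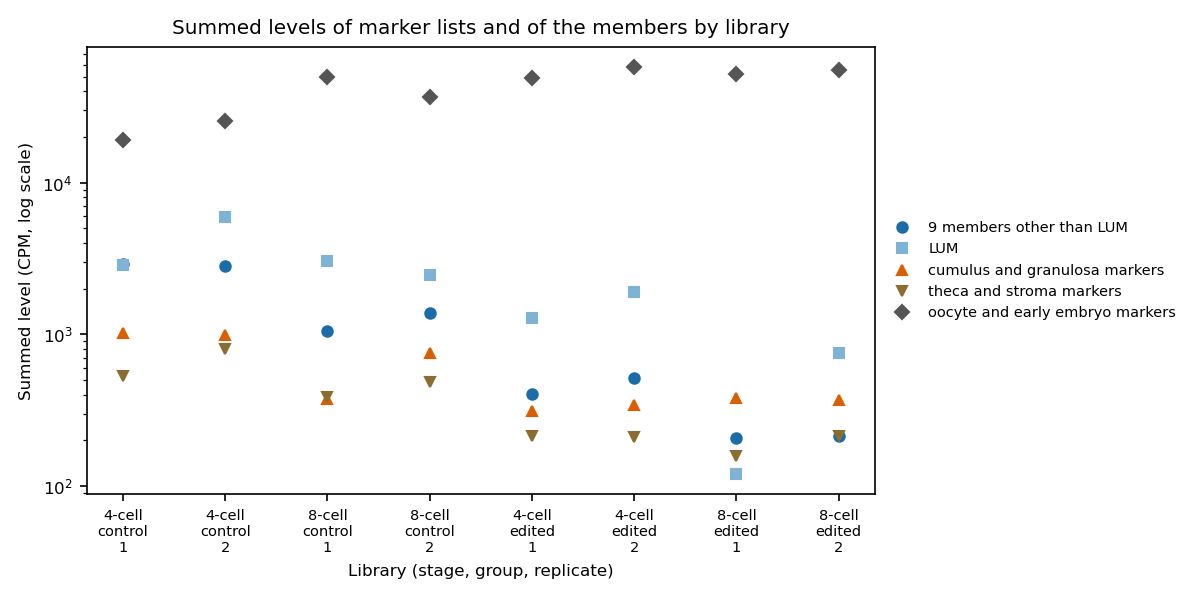
Summed level (CPM, log scale) in each of the 8 libraries of the 9 members other than LUM, of LUM alone, and of the marker lists for cumulus and granulosa cells, theca and stroma, and oocyte and early embryo. The 9 members lie at 208 and 215 CPM in the 8-cell edited libraries and at 2896 and 2818 CPM in the 4-cell controls, and the oocyte and early embryo markers lie between 19076 and 57539 CPM.

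Single markers, named here after their values were seen, are set out beside the members. HSD3B1, a steroidogenic enzyme of granulosa and theca cells, was at 283 and 283 CPM in 4-cell controls, 5.87 and 17.8 CPM in 4-cell edited embryos, 40.7 and 176 CPM in 8-cell controls, and 8.31 and 3.08 CPM in 8-cell edited embryos. In 8-cell controls the higher HSD3B1 library was 4.32 times the lower. For the members this ratio ran from 1.19 for THBS1 to 2.49 for DCN. Replicate 2 was the higher there for HSD3B1 and for every member but LUM and FN1. In 8-cell edited embryos replicate 1 was the higher for HSD3B1, COL1A2, THBS1 and TAGLN. Replicate 2 was the higher for LUM, DCN, SPARC, FN1 and COL1A1, with VIM nearly equal and COL3A1 without reads. In 4-cell controls HSD3B1 was equal in the libraries, where the members differed from 1.005-fold for SPARC to 2.69-fold for DCN. A common source of HSD3B1 and the members was not tested. STAR, the cholesterol transporter of steroidogenic cells, was at 159 and 193 CPM in 4-cell controls and at 127 and 126 CPM in 4-cell edited embryos, and in 8-cell embryos its edited libraries, at 174 and 213 CPM, lay above the controls at 154 and 143 CPM. PDGFRA, a receptor of stromal and theca cells, was at 45.1 and 126 CPM in 4-cell controls and at 24.4 and 41.6 CPM in 4-cell edited embryos, and at 78.5 and 51.2 against 5.65 and 18.9 CPM in 8-cell embryos.

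The other marker lists gave few calls in the direction of the members. The summed oocyte and early embryo markers were lowest in 4-cell controls, at 19076 and 25473 CPM, and between 36770 and 57539 CPM in the other 6 libraries. BTG4, an adaptor of maternal mRNA decay also named after its values were seen, made up between 58.3% and 66.9% of this sum, and without it the sum was 7060.1 and 10548 CPM in 4-cell controls and between 13290.4 and 22914 CPM in the other 6. Of the 14 tested, 6 (42.9%) rose and none fell at the 4-cell stage, and 2 (14.3%) rose and none fell at the 8-cell stage. Over all genes tested 18.9% rose and 25.8% fell at the 4-cell stage, and 1.08% rose and 14.5% fell at the 8-cell stage. Endothelial markers summed to between 54.2 and 163 CPM, blood and immune markers to between 13.6 and 25.8 CPM, and sperm markers to between 0.828 and 15.6 CPM. At the 4-cell stage CD68, a macrophage marker, fell by 1.16 and TEK, an endothelial receptor, rose by 1.28 on the log2 scale, and at the 8-cell stage CD3E, a T cell marker, and AKAP4, a sperm tail protein, rose by 1.23 and 1.79; these 4, named after their values were seen, are all the calls of the 3 lists between edited and control embryos. PECAM1 and TIE1 of the endothelial list and PTPRC and CD14 of the blood list had means under 1 CPM.

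The members resembled each other across the 8 libraries to different degrees. The Pearson r of each member with the mean standardized profile of the other 9 was 0.990 for VIM, 0.988 for SPARC, 0.960 for THBS1 and 0.958 for COL1A2. It was 0.875 for LUM, 0.885 for DCN, 0.890 for COL1A1 and 0.836 for FN1. These values are a description over 8 libraries that share their groups. Of 7428 other genes averaging 10 CPM or more, 1006 (13.5%) had an r above 0.9 with the mean profile of the 10 members.

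Among the 5 genes most like the mean member profile were MAGED2, USP18, MTX2 and H2AZ1, with Pearson r between 0.993 and 0.997 over the 8 libraries. MAGED2, a regulator of renal salt transport, was at 507 and 659 CPM in 4-cell controls, 66.0 and 62.5 CPM in 4-cell edited embryos, 174 and 266 CPM in 8-cell controls, and 13.9 and 25.3 CPM in 8-cell edited embryos. USP18, which removes the ubiquitin-like protein ISG15, had the same order of groups, as did MTX2, a mitochondrial outer membrane protein, and the histone variant gene H2AZ1. The 3 genes least like it were DDX59, an RNA helicase, at r = -0.972, ZCWPW1, a histone methylation reader, at -0.969, and ADCY2, an adenylate cyclase, at -0.968. ZCWPW1 was at 115 and 118 CPM in 4-cell controls and at 264 and 268 CPM in 8-cell edited embryos.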

How the data were processed

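RNA from pools of 5 embryos was amplified with a Smart-seq2 v4 kit and made into Nextera XT libraries, per the labels' protocols. The submitters' processing notes name Trim Galore 0.6.7, HISAT2 2.2.1 and featureCounts 2.0.1; the genome build and the annotation are not given in the sources used here. The deposited values are counts per 1000000 reads (CPM): each column summed to between 992528 and 1007024. Whole reads were recovered, since 100% of positive values were whole multiples of 1 step per library (tolerance 0.05 of a read). Of 12 columns, 8 were matched to libraries by library name and 4 were not used here. The members and lists were chosen with earlier results of these data known.

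The test, chosen for CPM, was limma 3.58.1 (R 4.3.3) with trend on log2(CPM + 1), 1 mean per group over all 8 libraries. It covered 12129 genes averaging 1 CPM or more, with Benjamini-Hochberg adjustment over them. It was tried on simulated counts with 200 changed genes in 1 group and 1 spread shared by all genes. That setting has fewer changed genes and a more even spread than these data, so it does not cover them. With 2 libraries against 2 an exact two-sided permutation test cannot go below p = 0.333, so none is given. Named are all members, the 3 called genes of each list with the largest change between edited and control embryos in each stage, and the 5 genes most and 3 least like the members over the 8 libraries, of which 1 is not reported here; list genes that rose, and others where stated, were named after their values were seen. Alternatives were pseudocounts of 0.5 and 5 CPM, no minimum level, only the libraries compared, TMM scaling, a replicate block, edgeR 4.0.16 and DESeq2 1.42.0 on recovered reads, and leaving out each library. On recovered reads edgeR called 5172 genes in the 4-cell and 1695 in the 8-cell comparison of edited with control embryos. Gene neighbours come from RefSeq for ARS-UCD2.0, which matched 16571 of the 16606 symbols. Intervals and floors cover counting error only, since amplified reads without molecular identifiers are not independent molecules.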

Additional observations from a re-analysis of the deposited data

Results flagged for a closer look

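Limma's interaction term called a change from 4 to 8 cells in the difference between edited and control embryos for 1 member and 5 list genes. All these calls were lost with edgeR and with no minimum level. Of the list genes, PCOLCE and SMOC1 were outside the naming rule and were named after their values were seen. The values below are the 8-cell minus the 4-cell log2 fold change. For the member THBS1, which was chosen from these libraries and whose value is a description, it was -1.50 (SE 0.352).

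LOXL4, the lysyl oxidase, had -3.27 (SE 0.564, limma adjusted p = 0.0149). It was at 19.99 and 24.5 CPM in 4-cell controls and 22.9 and 18.5 CPM in 4-cell edited embryos, which overlapped, and at 46.3 and 21.8 against 1.31 and 3.38 CPM at the 8-cell stage. PLOD2, the lysyl hydroxylase of collagen telopeptides, had -2.15 (SE 0.511, limma adjusted p = 0.0353), from 186 and 303 against 73.6 and 190 CPM at the 4-cell stage to 156 and 232 against 18.9 and 22.4 CPM at the 8-cell stage. Both genes act on collagen after its synthesis.

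The other 3 genes went the opposite way. PDLIM7 had 2.14 (SE 0.441, limma adjusted p = 0.0254), falling by 3.66 at the 4-cell and by 1.52 at the 8-cell stage. PCOLCE, an enhancer of procollagen processing, had 1.68 (SE 0.400, limma adjusted p = 0.0353), with a fall of 1.21 at the 4-cell stage and a value of 0.48 in 8-cell embryos that was not called. SMOC1, a calcium-binding matrix glycoprotein, had 1.82 (SE 0.446, limma adjusted p = 0.0382), at 17.3 and 16.6 CPM in 8-cell controls and 53.1 and 31.1 CPM in 8-cell edited embryos. Calls of these 5 list genes were lost with edgeR, with no minimum level and in between 6 and 9 of 15 alternatives in all, with every value keeping its sign.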

How the results depend on the processing

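Counts are genes called by limma unless another tool is named. Between edited and control embryos, leaving out 1 library gave 8 to 9 members and 65 to 83 list genes at the 4-cell stage, and 7 to 9 members and 43 to 66 list genes at the 8-cell stage; 43 was without 8-cell control replicate 2. Every other alternative kept these counts within 1.5 times. From 4-cell to 8-cell controls, the counts of 4 members and 23 list genes became 0 and 0 with no minimum level (6 and 54 at an unadjusted p under 0.05), 2 and 7 with only the libraries compared, 1 and 3 with edgeR, and 0 to 5 and 0 to 28 with 1 library left out. In edited embryos, 6 members and 18 list genes became 2 and 1 with no minimum level and 1 to 6 and 0 to 23 with 1 library left out, and DESeq2 gave 34 list genes. For the interaction, 1 member and 5 list genes became 0 and 0 with no minimum level (3 and 29 at an unadjusted p under 0.05) and with edgeR (4 and 34), 3 and 10 with DESeq2, and 0 to 2 and 0 to 12 with 1 library left out. The cause was not tested.

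The replicate numbers did not pair the libraries (correlations of same-numbered deviations 0.108, -0.086, -0.302 and 0.023). With the number as a replicate block the member counts in the 5 comparisons were 9, 9, 5, 6 and 1 and the list counts 84, 68, 22, 21 and 6. A crossed block for the control stages, added after seeing the data, gave 4 and 26.

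Of 798 values of single members under alternatives, 717 kept direction and side of the threshold, 61 lost the call, 13 gained it and 7 reversed. COL3A1 between control stages was 0.07 without 4-cell control replicate 2 and 0.31 without 8-cell control replicate 1, in a range from -0.60 with 1 library left out. DCN between edited stages was 0.58 without 8-cell edited replicate 1 and -1.48 without 8-cell edited replicate 2. In the interaction SPARC was -0.00609 with edgeR, -0.20 without 4-cell edited replicate 1 and -0.0176 without 8-cell control replicate 1, with 0.48 the highest, and COL1A1 was -0.00608 without the last and 0.76 without 8-cell control replicate 2. edgeR moved the median of all genes by 0.11 at the 4-cell stage and by -0.13 in the interaction; the 10 members stayed below 0 in the other comparisons under each scaling. Depth limits COL1A1 and COL3A1, with at most 13 and 87 reads in an edited library.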
